A study of Homo sapiens with 6 samples.

Results

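The genes described here encode the subunits of the INO80, SRCAP and TIP60 (also named TIP60/EP400) chromatin remodeling complexes. They are listed by name from known complex membership, a list drawn up with earlier results of these data known, and 32 of the 57820 genes in the count tables are members. Of these, 12 belong to the INO80 complex, 4 to the SRCAP complex, 3 to both the SRCAP and TIP60 complexes, 11 to the TIP60 complex, and RUVBL1 and RUVBL2 to all 3 complexes. All 32 had enough counts to be tested, among 19599 genes tested.

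RNA-seq was performed in AID-DIvA cells, a derivative of the U2OS osteosarcoma line in which the restriction enzyme AsiSI can be switched on with hydroxytamoxifen and removed through an auxin degron. The samples compared were 3 wild type (WT) and 3 ARID1A knockout (ARID1A-KO) samples, numbered 3, 4 and 5 in each genotype, all untreated, so that no double-strand breaks were induced in either genotype. The knockout was made by CRISPR-Cas9 with guides to ARID1A, the DNA-binding subunit of the canonical BAF form of SWI/SNF, and whether the cells are 1 clone is not given in the sources used here. The labels number the replicates without saying how they were made, while the study's legends describe its RNA-seq replicates as independent biological experiments.

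All 3 complexes are large assemblies built around an ATPase of the INO80 family. The INO80 complex slides nucleosomes and acts on nucleosomes that carry the histone variant H2A.Z, whereas the SRCAP and EP400 ATPases exchange H2A for H2A.Z. The TIP60 complex adds the acetyltransferase KAT5, which acetylates histones H4 and H2A and the kinase ATM during the response to DNA damage. RUVBL1 and RUVBL2 form a ring that holds each complex together.

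The samples held from 54512105 to 84088708 counts on the reverse strand, and the members' share of them lay between 2477 and 2554 CPM (counts per 1000000). Their lowest count in any sample was 320, for INO80C. ARID1A fell from 173.4 ± 6.67 CPM in WT to 25.9 ± 1.38 CPM in ARID1A-KO samples (SD, n = 3 each; CPM after TMM normalization, as in all that follows). TPM scales transcripts by the exonic length of each gene, so that levels of different genes can be compared approximately. Of the markers of the labelled mesenchymal cell line, VIM lay between 1440 and 2950 TPM and SPARC between 266 and 540 TPM. COL1A2 was near 0 at 0.0804 TPM or less. Of the blood and epithelial markers HBB was at 0 in all samples, CD3E, KRT19, CDH1 and PTPRC were below 1 TPM, and EPCAM lay between 5.58 and 9.29 TPM. These markers differed between the genotypes too, since 7 of the 9 markers with enough counts were called (2 higher and 5 lower in ARID1A-KO cells, by the test described with the members). VIM, for instance, had a log2 fold change of 0.84 (adjusted p of 0.000171, edgeR) and SPARC of -0.89 (adjusted p of 4.49e-05, edgeR). Their part in the results for the members was not tested.

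First, the levels of the subunit genes were compared with each other in WT cells, on the TPM scale. The order depends on the exonic length set for each gene, such as 1240 bases for TFPT and 5510 for ZNHIT1. That length need not be the length of the transcripts present in these cells. The mean level spanned 48.3-fold, from INO80C at 4.19 ± 0.22 TPM to MORF4L2 at 202 ± 0.34 TPM (SD, n = 3). The highest members after MORF4L2, a paralog of the chromodomain protein MORF4L1, were RUVBL2 at 191 ± 15.9 TPM and MORF4L1 itself at 164 ± 11.9 TPM. MRGBP, which binds the MORF4L proteins, reached 96.7 ± 3.47 TPM and MCRS1, an INO80 subunit, reached 97.0 ± 2.92 TPM. RUVBL1, the ring partner of RUVBL2, had 67.4 ± 3.75 TPM. The ATPase genes were close in level, with 52.4 ± 3.43 TPM for INO80, 38.9 ± 0.24 TPM for SRCAP and 38.4 ± 1.91 TPM for EP400. KAT5 had 46.2 ± 1.03 TPM and TRRAP, the large pseudokinase scaffold that the TIP60 complex shares with SAGA, had 55.8 ± 1.57 TPM.

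**Figure D1:**
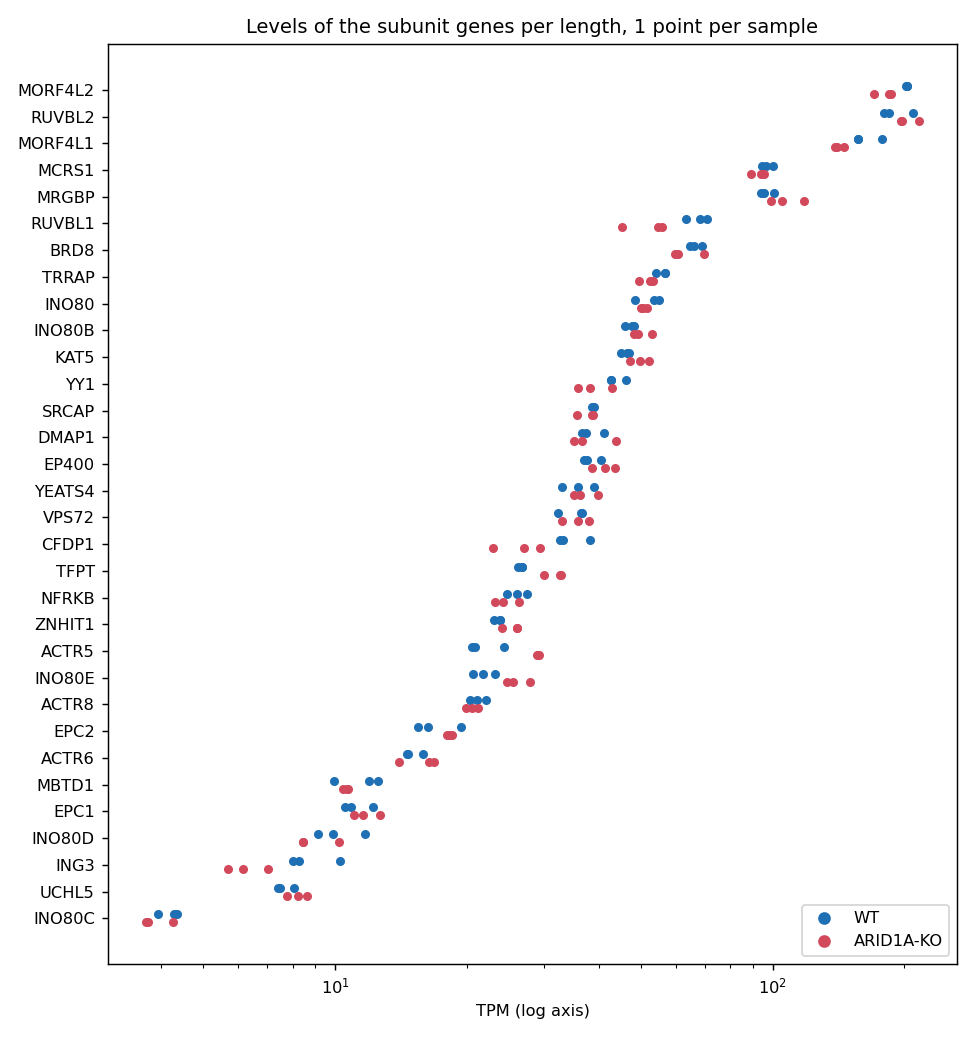
The level of each subunit gene in TPM (horizontal log axis) is drawn for the 3 WT samples (blue) and the 3 ARID1A-KO samples (red), ordered by the WT mean. The order runs from INO80C at the bottom to MORF4L2 at the top, and no gene changes its place by more than 3 ranks.

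When the members were ordered by their WT mean, the 3 WT samples of a gene lay below those of the next gene for 11 of the 31 neighbouring pairs and overlapped for the other 20. Clear steps separated INO80C from UCHL5 (7.65 TPM), MBTD1 (11.5 TPM) from ACTR6 (15.1 TPM), EPC2 (17.1 TPM) from ACTR8 (21.2 TPM), and TFPT (26.5 TPM) from CFDP1 (34.7 TPM). CFDP1, VPS72, YEATS4, EP400, DMAP1 and SRCAP, between 34.7 and 38.9 TPM, overlapped one with the next. In ARID1A-KO samples the order was close to that in WT, with a largest shift of 3 ranks. The summed TPM of the 32 genes was 1578 ± 8.64 in WT and 1540 ± 31.1 in ARID1A-KO samples (SD, n = 3 each).

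Next, the genotypes were compared gene by gene with edgeR's quasi-likelihood test across all genes. In bulk RNA, fewer cells that express a gene and less RNA of it per cell cannot be told apart. A gene with a Benjamini-Hochberg adjusted p below 0.05 is named called. ACTR5, TFPT and INO80E, all subunits of the INO80 complex, were higher in ARID1A-KO cells, and ING3, CFDP1, RUVBL1 and MORF4L1, which belong to the SRCAP or TIP60 complex or to all 3, were lower. Thus 7 of 32 members (21.9%) were called, where 36.2% of all genes tested were called. For the directions, 3 members were higher against a background of 17.8% of all genes, and 4 were lower against 18.4%. The CPM of the genotypes did not overlap for 14 of 32 members (43.8%), against 49.5% of all genes tested. Each of these shares of the members was below the background. The split between directions moved with offsets on the data. With an offset on exonic GC content 1 member was higher and 5 were lower (all genes: 36.8% called, 17.5% higher and 19.3% lower), and with the median change of each gene's chromosomal neighbours taken off 1 was higher and 4 were lower (all genes: 31.8% called, 15.7% higher and 16.1% lower).

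The changes of the members were small. The median log2 fold change, ARID1A-KO over WT, was -0.01 over the members and 0.01 over all genes tested, with 16 members above and 16 below 0. The median absolute log2 fold change was 0.11 for the members, 0.27 for all genes tested, and 0.21 for the 13217 genes with a mean log2 CPM over 1. The largest absolute log2 fold change of a member was 0.49, and none of the members changed by 2-fold or more, whereas 2287 of all genes tested differed by that much. The standard errors of the members' log2 fold changes lay between 0.05 and 0.12. The count of 7 called members depended on which samples were used. When WT replicate 5 was left out, 2 members were called, and the genes called in all went from 7099 to 6036. Leaving out ARID1A-KO replicate 4 gave 3 members and 5285 genes in all. Leaving out replicate 3 gave 4 members in either genotype, with 5657 genes in all for WT and 5731 for ARID1A-KO. Leaving out WT replicate 4 or ARID1A-KO replicate 5 gave 5 members, with 6999 and 7050 genes in all.

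**Figure D2:**
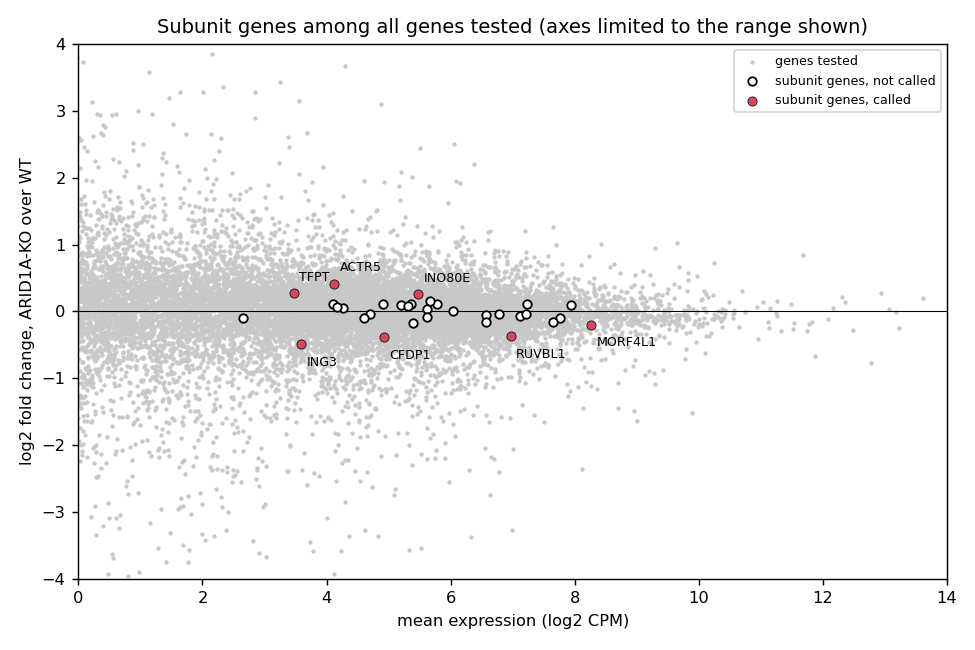
The log2 fold change of ARID1A-KO over WT (vertical) is drawn against the mean log2 CPM (horizontal) for all genes tested (grey), for subunit genes that were not called (open circles) and for those called (red, named). The axes cut off the most extreme genes; the subunit genes lie in a narrow band between -0.49 and 0.42.

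Among the 12 subunits that, of the 3 complexes, were listed for INO80 only, 3 (25%) were called, all of them higher in ARID1A-KO cells. Of all genes tested, 36.2% were called and 17.8% were higher. The log2 fold change was above 0 for 5 of the 12 subunits and below 0 for 7, with a median of -0.04. With the shared RUVBL1 and RUVBL2 included, 4 of 14 were called, 3 higher and 1 lower. ACTR5, an actin-related protein needed for nucleosome sliding, lies on chr20:37377085-37400834 (GRCh37, plus strand). It was measured at 13.8, 16.6 and 14.3 CPM in WT replicates 3, 4 and 5 and at 20.8, 19.9 and 19.1 CPM in the ARID1A-KO replicates. Every ARID1A-KO sample was above every WT sample. This gave a log2 fold change of 0.42 ± 0.09 (SE) with an adjusted p of 0.00633 (edgeR's quasi-likelihood test), and ACTR5 was called under all 15 alternative fits, where its log2 fold change ranged from 0.34 to 0.50.

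INO80E, a small subunit of the N-terminal module of INO80, is encoded on chr16:30006615-30017114 (plus strand). Its level was 37.7, 43.0 and 40.7 CPM in WT and 47.6, 51.8 and 45.8 CPM in ARID1A-KO samples, again without overlap. For INO80E the log2 fold change was 0.26 ± 0.08 (SE; adjusted p of 0.0249, edgeR). The gene overlaps HIRIP3 on the opposite strand, which had a log2 fold change of 0.00 ± 0.08 (SE), and DOC2A, also on the opposite strand, which was higher by 0.89 ± 0.15 (SE) on the log2 scale (edgeR, adjusted p of 0.00145) from a WT mean of 1.36 CPM. INO80E was not called with an offset on GC content or when the median change of its chromosomal neighbours was taken off, and was called in 2 of the 6 fits that left out a sample.

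TFPT, another subunit of the INO80 N-terminal module, lies on chr19:54610320-54619055 (minus strand). It had 9.77, 10.1 and 10.2 CPM in WT and 11.8, 12.4 and 12.0 CPM in ARID1A-KO samples. The samples of each genotype were close together and the genotypes did not overlap. TFPT differed by 0.27 ± 0.08 on the log2 scale (SE; adjusted p of 0.030, edgeR), but TFPT was called in 4 of the 15 alternative fits and in none of those that left out a sample.

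The other INO80 subunits were not called. For the ATPase INO80 itself the log2 fold change was -0.04 ± 0.06 (SE), and for ACTR8, the actin-related protein of its DNA-binding arm, -0.04 ± 0.07. INO80B, which activates the ATPase, had 35.7, 35.9 and 34.8 CPM in WT and 37.6, 37.2 and 38.6 CPM in ARID1A-KO samples. The genotypes did not overlap, with a log2 fold change of 0.09 ± 0.06 (SE) that was not called. The remaining log2 fold changes were -0.10 for INO80C, -0.18 for INO80D, -0.08 for NFRKB, -0.06 for MCRS1 and 0.11 for UCHL5, a deubiquitinase that also works at the proteasome. YY1, a DNA-binding transcription factor that associates with the INO80 complex, had 104, 97.7 and 98.3 CPM in WT and 85.3, 87.3 and 94.8 CPM in ARID1A-KO samples. These did not overlap, yet its log2 fold change of -0.16 ± 0.06 (SE) had an adjusted p of 0.0698 in edgeR's quasi-likelihood test. YY1 was called in 1 of the 15 alternatives, without ARID1A-KO replicate 5 (log2 fold change -0.21, adjusted p of 0.0290, edgeR).

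**Figure D3:**
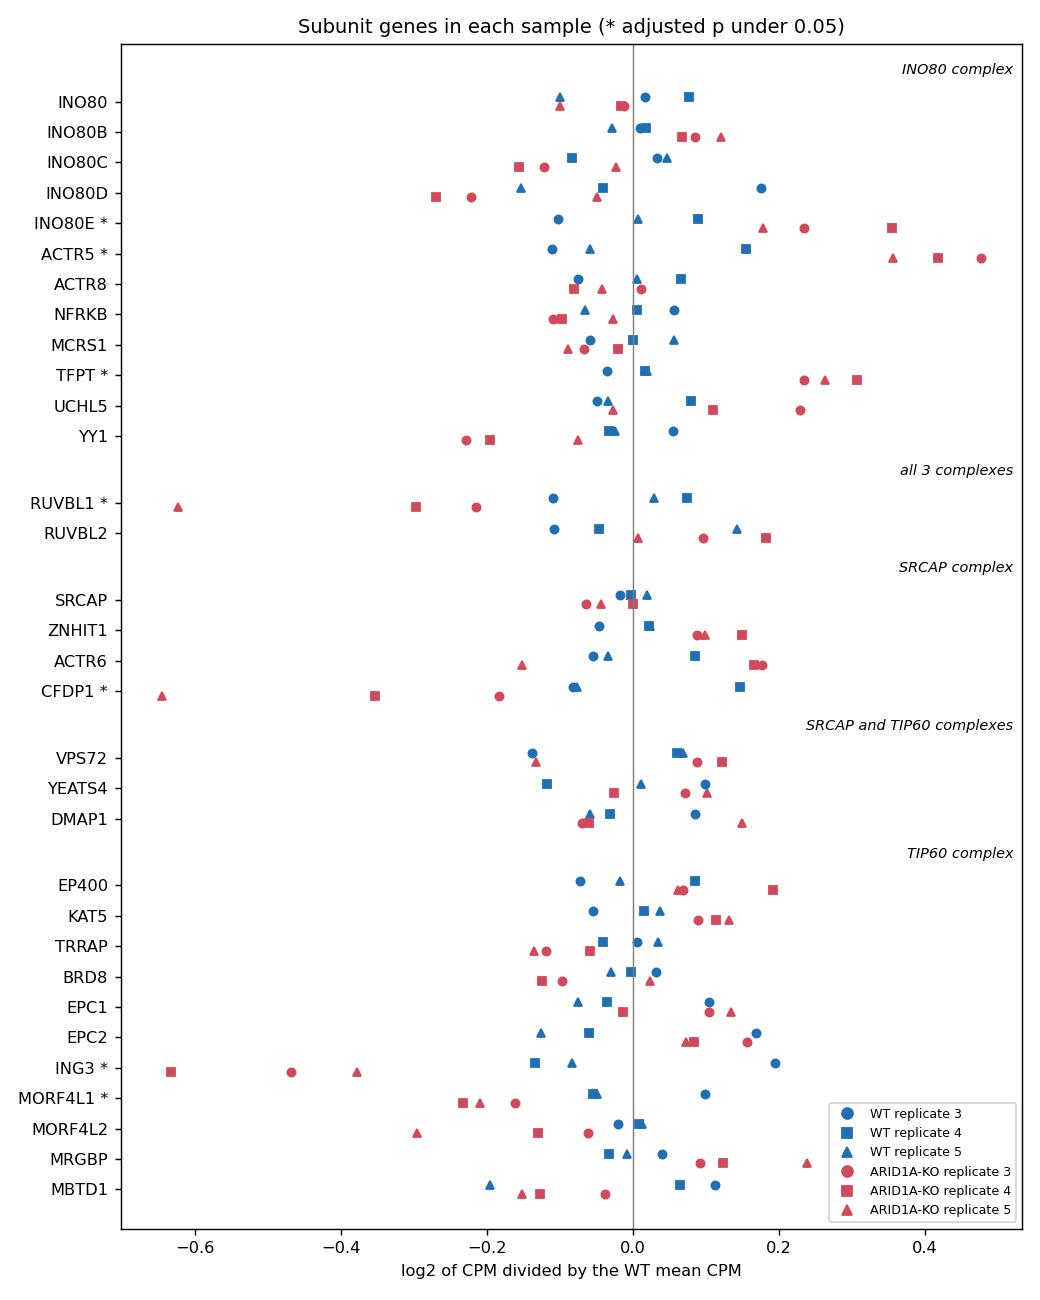
Each sample's CPM is drawn as the log2 of its ratio to the WT mean for the 32 subunit genes, grouped by complex, with WT in blue, ARID1A-KO in red, and a symbol for each replicate number. Asterisks mark the 7 called genes; ACTR5, TFPT and INO80E lie to the right of WT, and ING3, CFDP1, RUVBL1 and MORF4L1 to the left.

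The ring ATPases shared by the 3 complexes differed from each other. RUVBL1, on chr3:127783621-127872757 (minus strand), had 130.6, 148.3 and 143.8 CPM in WT and 121.4, 114.7 and 91.5 CPM in ARID1A-KO samples. All ARID1A-KO samples were below all WT samples, with replicate 5 the lowest. RUVBL1 was thus lower, at -0.37 ± 0.10 on the log2 scale (SE; edgeR, adjusted p of 0.0203), and at -0.25 (adjusted p of 0.0272, edgeR) without that sample. RUVBL1 was not called without WT replicate 5 (adjusted p of 0.0635, edgeR).

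For RUVBL2 the values were 219.6, 229.3 and 261.2 CPM in WT and 253.1, 268.7 and 237.9 CPM in ARID1A-KO samples. The genotypes overlapped, and the log2 fold change was 0.10 ± 0.08 (SE; adjusted p of 0.375, edgeR).

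Genes close to RUVBL1 moved with it. The median log2 fold change of the 57 other tested genes within 5 Mb with a mean log2 CPM over 1 was -0.44, the lowest such median of any member. SEC61A1, a subunit of the translocation channel of the endoplasmic reticulum that overlaps RUVBL1 on the opposite strand, was also lower, by -0.54 ± 0.06 (SE) on the log2 scale (edgeR, adjusted p of 0.000116). When the neighbours' median was taken off, the log2 fold change of RUVBL1 was 0.07 with an adjusted p of 0.648 (edgeR). The part of the surrounding region in the value of RUVBL1 was not tested.

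In the SRCAP complex, 1 of the 4 subunits (25%) that are not shared with TIP60 was called, against 36.2% of all genes tested. CFDP1, a human relative of the yeast remodeler subunit Swc5, lies on chr16:75327596-75467383 (minus strand). Its values were 32.3, 37.8 and 32.4 CPM in WT and 30.1, 26.8 and 21.9 CPM in ARID1A-KO samples. The genotypes did not overlap, although ARID1A-KO replicate 3 came close to the lower WT samples. The log2 fold change was -0.38 ± 0.12 (SE; adjusted p of 0.0311, edgeR), the largest standard error among the members, and it was called in 2 of the 6 fits that left out a sample. Its neighbours within 5 Mb moved the other way, with a median log2 fold change of 0.29, the highest of any member. Relative to them, the log2 fold change of CFDP1 was -0.68.

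The ATPase SRCAP was at 149.2, 150.7 and 153.1 CPM in WT and 144.5, 151.0 and 146.5 CPM in ARID1A-KO samples. The genotypes overlapped and the log2 fold change was -0.04 ± 0.05 (SE), the smallest standard error among the members. Its neighbours on chromosome 16 had a median of 0.16, and with that taken off SRCAP had a log2 fold change of -0.20 (adjusted p of 0.0199, edgeR). That p takes the median as a fixed value and leaves out the spread among the neighbours. ZNHIT1, a small zinc finger subunit needed for H2A.Z exchange, had 38.3, 40.2 and 40.2 CPM in WT and 42.1, 43.9 and 42.4 CPM in ARID1A-KO samples. These did not overlap, but the log2 fold change of 0.11 ± 0.06 (SE) was not called. For the actin-related protein ACTR6 the log2 fold change was 0.07 ± 0.10 (SE), with ARID1A-KO replicate 5 below the WT samples and the other ARID1A-KO samples above them.

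None of the 3 subunits that the SRCAP and TIP60 complexes share was called. The log2 fold changes were 0.03 ± 0.09 (SE) for VPS72, a histone chaperone that binds H2A.Z, 0.05 ± 0.08 for YEATS4, whose YEATS domain reads acylated lysine, and 0.01 ± 0.08 for DMAP1. The genotypes overlapped for all 3 genes.

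Among the 11 subunits that, of the 3 complexes, were listed for TIP60 only, 2 (18.2%) were called, both lower in ARID1A-KO cells. Of all genes tested, 36.2% were called and 18.4% were lower. The log2 fold change was above 0 for 5 of the 11 subunits and below 0 for 6. With the shared subunits included, 3 of 16 were called, all lower. ING3, a PHD finger protein that binds methylated histone H3, lies on chr7:120590803-120617270 (plus strand) and overlaps no other gene of the tables. It was measured at 16.1, 12.8 and 13.3 CPM in WT and at 10.2, 9.06 and 10.8 CPM in ARID1A-KO samples, and no ARID1A-KO sample reached the lowest WT sample. Its log2 fold change of -0.49 ± 0.11 (SE; adjusted p of 0.00906, edgeR) was the largest of the 32 genes in absolute size. The mean in ARID1A-KO cells was 71.3% of that in WT, and ING3 was called under all 15 alternative fits, with log2 fold changes from -0.55 to -0.39.

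MORF4L1, whose chromodomain binds methylated histone H3, lies on chr15:79102829-79190475 (plus strand). It had 351, 315.4 and 316.7 CPM in WT and 292.9, 279.0 and 283.5 CPM in ARID1A-KO samples, without overlap. The log2 fold change of -0.20 ± 0.06 (SE; adjusted p of 0.0368, edgeR) was called in 7 of the 15 alternatives and in 1 of the 6 fits that left out a sample. MORF4L1 has processed pseudogenes of closely related sequence, and how the counting divided reads between them is uncertain.

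The remaining TIP60 genes were not called, including both enzymes. For the acetyltransferase KAT5 the log2 fold change was 0.11 ± 0.06 (SE), although its ARID1A-KO samples (55.9, 56.8 and 57.5 CPM) were all above the WT samples (50.6, 53.1 and 53.9 CPM). For the ATPase EP400 it was 0.11 ± 0.07, and it was called with an offset on exonic length (0.23, adjusted p of 0.0240, edgeR). TRRAP was at 225.5, 218.3 and 230 CPM in WT and at 206.8, 215.7 and 204.5 CPM in ARID1A-KO samples, which did not overlap, and its value of -0.10 ± 0.06 (SE) on the log2 scale had an adjusted p of 0.185 (edgeR). EPC1 and EPC2, the paralogous enhancer of polycomb proteins that join KAT5 to the complex, had log2 fold changes of 0.08 and 0.11. The bromodomain protein BRD8 had a log2 fold change of -0.06 and MBTD1, a reader with MBT repeats, of -0.11.

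MORF4L2 and MRGBP stood apart in every sample without being called. MORF4L2 was at 207.8, 212.1 and 212.6 CPM in WT and at 202.1, 192.6 and 171.8 CPM in ARID1A-KO samples (log2 fold change -0.16 ± 0.07 SE, adjusted p of 0.106, edgeR). The levels of MRGBP were 49.5, 47.1 and 47.9 CPM in WT and 51.3, 52.4 and 56.8 CPM in ARID1A-KO samples (log2 fold change 0.15 ± 0.06 SE, adjusted p of 0.0910, edgeR). At an unadjusted p below 0.05, 10 members (31.2%) would pass, against 45.9% of all genes tested, namely the 7 called genes with YY1, MORF4L2 and MRGBP.

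To set the called genes against their surroundings, each member was compared with its chromosomal neighbours. Where the neighbours' median was taken off, it entered the fit as a fixed value. The adjusted p of such a fit leaves out the spread among the neighbours. A median was available for 31 members on 16 chromosomes (UCHL5 had 9 neighbours, fewer than the 10 required). It lay within 0.1 of 0 for 22 members and had the sign of the member itself for 18. For ACTR5 the median was 0.05 and for ING3 -0.07, and both were called with it taken off (log2 fold changes of 0.36 and -0.42). For MORF4L1 it was -0.04, and with it taken off MORF4L1 was not called (-0.16, adjusted p of 0.0863, edgeR). For INO80E and TFPT the medians were 0.16 and 0.17, in the direction of the genes' own changes. With each median taken off, 5 of the 32 members were called (15.6%) against 7 without this step, while the share of all genes called went from 36.2% to 31.8%.

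**Figure D4:**
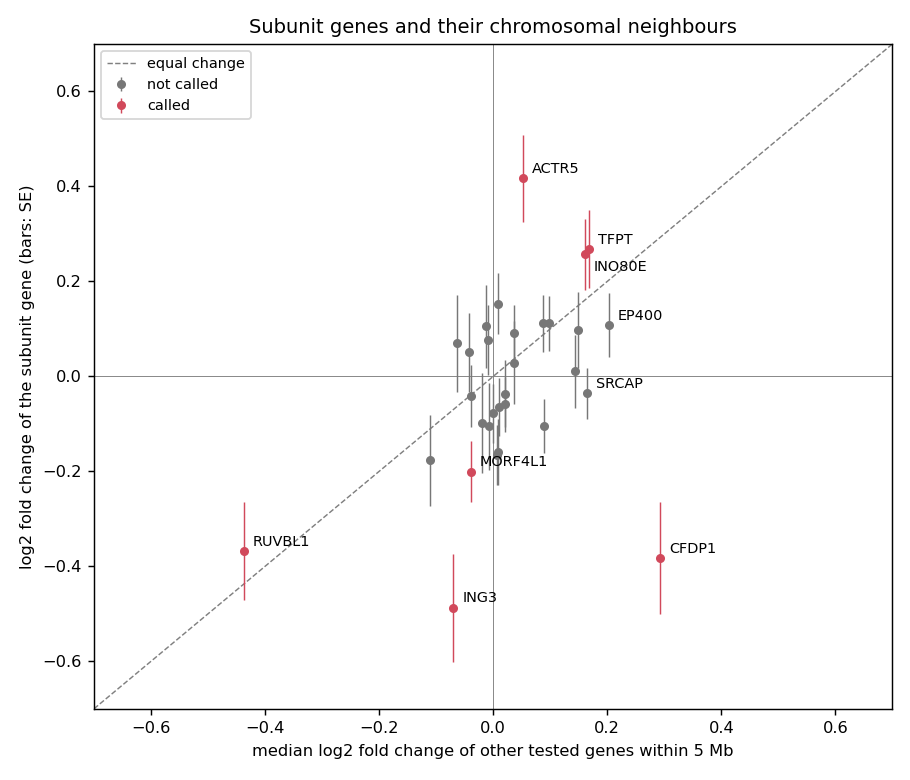
The log2 fold change of each subunit gene (vertical, bars show SE) is drawn against the median log2 fold change of the other tested genes within 5 Mb (horizontal), for 31 genes, and the dashed line marks equal change. RUVBL1 lies close to the dashed line at a neighbours' median of -0.44, while CFDP1 lies far below it at 0.29.

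Partner genes were then compared within each sample as log2 ratios of TPM, which do not depend on library size. The RUVBL1 to RUVBL2 ratio was 0.353, 0.384 and 0.327 in WT and 0.285, 0.253 and 0.228 in ARID1A-KO samples, lower in all 3. The difference of the mean log2 ratios was -0.48 (two-sided exact permutation test, p = 0.1, 0.2 after adjustment over 6 ratios), and 0.1 is the smallest p that 3 samples against 3 can give. The EP400 to SRCAP ratio, between the ATPases of the complexes that deposit H2A.Z, was 0.949, 1.05 and 0.962 in WT and 1.08, 1.13 and 1.06 in ARID1A-KO samples. Here the mean log2 ratio was higher by 0.14 without overlap (exact permutation p = 0.1, adjusted 0.2). The ratio of the genes that encode H2A.Z, H2AFZ to H2AFV, was 4.17, 4.56 and 4.67 in WT and 3.85, 4.00 and 3.70 in ARID1A-KO samples, a log2 difference of -0.21 (exact permutation p = 0.1, adjusted 0.2).

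The other ratios overlapped between genotypes. The log2 difference was -0.03 for EPC1 to EPC2 (exact permutation p = 0.8), -0.04 for MORF4L1 to MORF4L2 (p = 0.5) and 0.00 for INO80 to SRCAP (p = 1), with an adjusted p of 0.75 or more for all 3. EPC1 was the lower paralog in all 6 samples, at between 0.615 and 0.687 of EPC2, and MORF4L1 was at between 0.752 and 0.877 of MORF4L2.

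**Figure D5:**
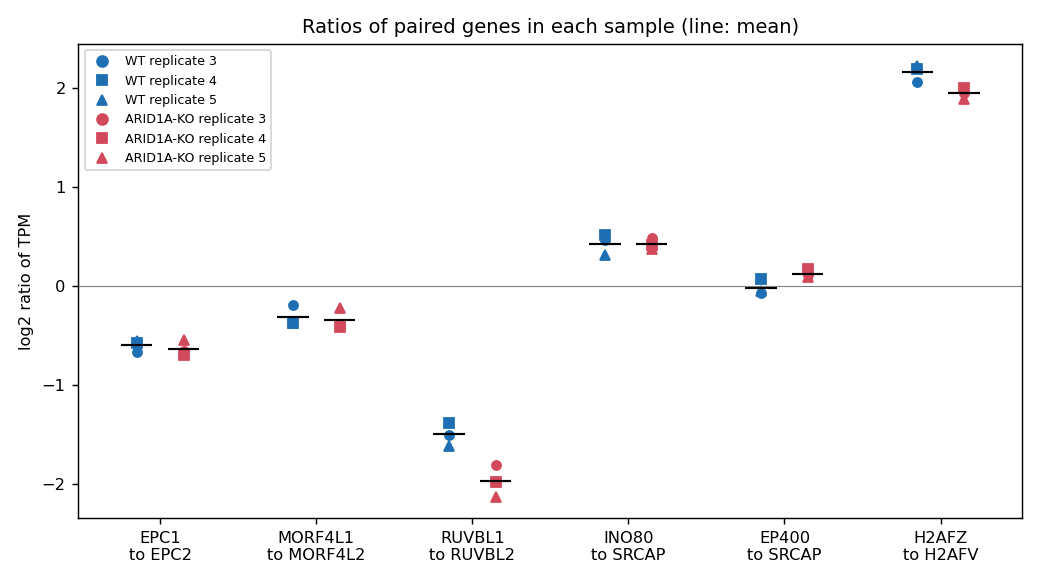
The log2 ratio of TPM is drawn for 6 pairs of genes in each of the 3 WT (blue) and 3 ARID1A-KO (red) samples, with the mean as a line and a symbol for each replicate number. The genotypes are apart for RUVBL1 to RUVBL2, EP400 to SRCAP and H2AFZ to H2AFV and overlap for the other pairs.

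Other genes of the same pathways were examined in 3 lists. Among 8 genes for H2A.Z, its chaperone and subunits shared with other complexes, 2 (25.0%) were lower and 6 were not called, where 36.2% of all genes tested were called and 18.4% were lower. H2AFZ fell from 519 ± 13.8 to 449 ± 5.47 CPM (SD, n = 3 each; log2 fold change -0.21 ± 0.06 SE, adjusted p of 0.0194, edgeR). ACTL6A, an actin-related protein of the INO80, TIP60 and SWI/SNF complexes, fell from 140 ± 5.88 to 112 ± 11.1 CPM (log2 fold change -0.32 ± 0.08 SE, adjusted p of 0.0122, edgeR), and the median of its neighbours was -0.25. The median for H2AFZ was -0.14, and neither gene was called with its neighbours' median taken off. Of the 6 fits that left out a sample, H2AFZ was called in 3 and ACTL6A in 6. H2AFV, ANP32E, ACTB, MEAF6, JAZF1 and H2AFX were not called, and the median log2 fold change of the list was -0.01.

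Among 17 genes for cochaperones that act with RUVBL1 and RUVBL2 or assemble TRRAP, 4 (23.5%) were higher and none were lower, against 36.2% of all genes called and 17.8% higher, with a list median of 0.04. PDRG1, a prefoldin-like protein, rose from 59.4 ± 6.64 to 86.0 ± 9.19 CPM (log2 fold change 0.53). POLR2E, an RNA polymerase subunit also found in the prefoldin-like complex, rose from 199 ± 12.1 to 278 ± 11.7 CPM (0.48). ZNHIT2 rose from 5.97 ± 0.61 to 8.65 ± 1.31 CPM (0.54) and ECD from 56.4 ± 0.64 to 72.8 ± 1.52 CPM (0.37), and all 4 had neighbours that were higher in the median, by 0.24 for PDRG1, 0.22 for POLR2E, 0.10 for ZNHIT2 and 0.39 for ECD. POLR2E was called in all 15 alternative fits, PDRG1 and ECD in 14 and ZNHIT2 in 12. With the neighbours' median taken off, neither ECD nor PDRG1 was called. The log2 fold change was then -0.03 for ECD (adjusted p of 0.757, edgeR) and 0.29 for PDRG1 (adjusted p of 0.0531, edgeR). The CPM values are means ± SD (n = 3 each), and the genotypes did not overlap for any of the 4. RPAP3, PIH1D1 and the TRRAP assembly factors TELO2, TTI1 and TTI2 were not called.

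SAGA, the acetyltransferase complex that also holds TRRAP, was represented by 17 tested genes of 18, since SUPT3H had too few counts. The median log2 fold change was -0.05, and 4 of the 17 (23.5%) were called, against 36.2% of all genes. Its subunits TADA3 (log2 fold change 0.31, adjusted p of 0.0191), TAF9 (0.18, 0.0370) and TAF10 (0.28, 0.0133) were higher, and KAT2B, a paralog of its catalytic subunit, was lower (-0.37, 0.0173; all edgeR). Of the 6 fits that left out a sample, TAF10 was called in 6, TADA3 in 3, KAT2B in 2 and TAF9 in 1. The neighbours' median was 0.14 for TAF10, 0.08 for TADA3, -0.0046 for TAF9 and -0.10 for KAT2B. With it taken off, TAF10 was not called (log2 fold change 0.145, adjusted p of 0.156, edgeR). The other 13 tested genes, including KAT2A and the deubiquitinase USP22, were not called.

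Finally, promoter sequences of the members were searched for motifs. RefSeq promoter windows (GRCh38.p14) held 300 bases, 250 before an annotated start of a gene and 50 from that start on. They matched 28 of the 32 members with 35 windows, and some members had several windows. Those of ING3, TRRAP, VPS72 and MORF4L2 were not matched. Of 11 motifs searched on both strands, the YY1 motif AANATGGC was found in 8 of 35 windows (22.9%), belonging to ACTR5, BRD8, EPC1, EPC2, INO80E, KAT5 and ZNHIT1, and in 6.58% of all 35116 windows. The ETS motif CCGGAAG was found in 9 of 35 windows (25.7%) and in 10.3% of all windows. The AsiSI site GCGATCGC was found in none of the 35 windows and in 0.208% of all windows. For the CCAAT box (CCAAT) the shares were 34.3% of the members' windows and 34.6% of all windows, for the GC box (GGGCGG) 57.1% and 45.0%, and for the CRE core (TGACGT) 14.3% and 7.98%. The E-box (CACGTG) was found in 5.71% and 7.26%, the TATA box (TATAAA) in 5.71% and 11.5%, and the AP-1 motif (TGANTCA) in 8.57% and 7.71%. The NRF1 core (GCGCATGC) and the E2F motif (TTTCCCGC) were found in 0 of the members' windows, and in 3.05% and 1.63% of all windows. The YY1 match of ZNHIT1, from base -133 to base -126 before the start, shares its first base with a TATA box match. The median GC content was 63.7% in the windows of the members and 58.7% in all windows. These matches are a description of letters and not of binding.

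In 5 windows (14.3%, against 2.69% of all windows) the YY1 motif lay after the annotated start on which the window is set. These windows are shown because YY1 is itself a member and because the motif stands at nearly the same place in each, from 20 bases before to 30 bases from the start on, 5′ to 3′ on the strand of the gene, with the motif or its reverse complement in capitals.
ACTR5: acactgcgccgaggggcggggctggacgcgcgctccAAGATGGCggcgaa
KAT5: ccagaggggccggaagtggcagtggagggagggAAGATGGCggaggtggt
BRD8: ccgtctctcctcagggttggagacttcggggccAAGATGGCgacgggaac
EPC1: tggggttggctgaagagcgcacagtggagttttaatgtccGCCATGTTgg
EPC2: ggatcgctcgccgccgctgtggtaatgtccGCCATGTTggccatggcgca
They are chr20:38748440-38748489 (plus strand), chr11:65712232-65712281 (plus), chr5:138178601-138178650 (minus), chr10:32347129-32347178 (minus) and chr2:148644731-148644780 (plus). Positions are counted from 1 at the start on which each window is set. The motif spans bases 17 to 24 in ACTR5 and 14 to 21 in KAT5 and BRD8. For EPC1 it spans bases 21 to 28 and for EPC2 11 to 18. The EPC1 and EPC2 windows shown share a run of 26 identical bases around the motif. EPC1 has 2 windows, and the one shown lies downstream of the other. In the other window, at chr10:32378720-32379019 (minus), the motif lay before the start, from base -125 to base -118. Of these 5 genes ACTR5 was called and the other 4 were not, with log2 fold changes of 0.42 for ACTR5, 0.11 for KAT5, -0.06 for BRD8, 0.08 for EPC1 and 0.11 for EPC2.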

How the data were processed

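Per the labels and methods, libraries were made with a stranded total RNA kit (the labels name polyA RNA) and sequenced as paired 100-base reads. The authors used STAR (Roddy workflow, GRCh37) and featureCounts, and deposited raw counts in whole numbers for each gene. They also deposited TPM. The TPM column used is reverse-stranded and sums to 1000000, and other TPM and FPKM columns were not used. The reverse-stranded counts were used, since forward-strand counts came to 5.83% to 6.15% of them. Replicates differed by more than sampling noise (chi-square per gene of 6.94 to 33.4). At these totals counting error is small. The spread between replicates, as edgeR's common biological coefficient of variation, was 0.111.

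Counts were filtered with filterByExpr, TMM-normalized and tested between genotypes with edgeR 4.0.16 (glmQLFit, glmQLFTest; R 4.3.3). The fit held all 6 samples without covariates, with Benjamini-Hochberg adjustment over all genes and a threshold of 0.05. The SE of a log2 fold change was derived as its absolute value divided by the square root of the quasi-likelihood F statistic. The study's own tool, DESeq2, is an alternative (1.42.0). Ratios of TPM were tested with exact permutation tests (SciPy 1.17.1). Alternatives were unstranded counts, RLE, no filter or at least 10 counts in every sample, a replicate block, offsets on exonic GC content or length fitted by loess with a span of 0.3, the neighbours' median within 5 Mb, each sample left out, and a threshold of 0.01. For TPM ratios they were 1 added to each TPM, unstranded TPM, at least 1 TPM in every sample, the block and each sample left out. The edgeR fit was tested on simulated counts in which 50 genes were changed at each size. It called 9 of them at 1.25-fold, 23 at 1.5-fold, 36 at 2-fold and 48 at 4-fold, with 4 false calls. Far fewer genes were changed in the simulation than were called in the data, and they were drawn from all genes tested. The numbers recovered therefore do not give the sensitivity for the members. Every member is named, and of the 3 other lists the called genes. The members, lists, motifs and alternatives were chosen with earlier results of these data known. Promoters are from RefSeq (GRCh38.p14). PECAM1, an endothelial marker, was not analysed here.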

Additional observations from a re-analysis of the deposited data

How the results depend on the processing

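With 3 samples per genotype, changes near the standard errors of the members are not resolved. ACTR5 and ING3 were called under all 15 alternative fits, 20 of the 25 uncalled members under none, and YY1, SRCAP, EP400, TRRAP and MCRS1 under 1 or 2. The causes of the changes below were not tested.

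At an adjusted p below 0.01, 4414 genes were called, with 2 members (1 higher, 1 lower). The H2A.Z, cochaperone and SAGA lists then held 0, 3 and 0 called genes. Leaving out a sample gave 2 to 5 called members (1 to 2 higher, 1 to 3 lower), 1 to 2 genes of the H2A.Z list, 3 to 5 cochaperone genes, 1 to 5 SAGA genes and 5285 to 7050 genes in all. It gave a median log2 fold change of the members of -0.043 to -0.0043. With the neighbours' median taken off, 1 member was higher and 4 were lower, the median was -0.055, and the H2A.Z, cochaperone and SAGA lists held 0, 2 and 2 called genes. With the GC offset 1 member was higher and 5 were lower. With unstranded counts or no filter, 6 members were called, and with RLE or DESeq2 7.

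Log2 ratios that changed sign when a sample was left out ranged from -0.079 to 0.0010 for EPC1 to EPC2, from -0.10 to 0.024 for MORF4L1 to MORF4L2 and from -0.063 to 0.036 for INO80 to SRCAP. Log2 fold changes of members that changed sign were, with the GC offset, INO80 0.0063, INO80B -0.064, ACTR8 0.0053, VPS72 -0.014 and DMAP1 -0.038. Relative to neighbours they were RUVBL1 0.069, RUVBL2 -0.051, VPS72 -0.0064, DMAP1 -0.13 and EP400 -0.094. With the length offset they were SRCAP 0.092, YEATS4 -0.029 and TRRAP 0.030, and with unstranded counts DMAP1 -0.0096. Without a sample, VPS72 ranged from -0.044 to 0.11, YEATS4 from -0.0055 to 0.094 and DMAP1 from -0.064 to 0.051.

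Whether the replicate numbers pair the samples cannot be settled with 3 samples per genotype. The deviations of samples with the same number correlated at -0.244, 0.488 and 0.319, and not every sample correlated best with its own number. With the replicate number as a block, 7 members (3 higher, 4 lower) and 7477 genes were called, and the RUVBL1 to RUVBL2 log2 difference was -0.48 with an exact sign-flip p of 0.25, the smallest that 3 pairs allow.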
